A study of Mus musculus with 2 samples.

Results

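The histone genes are described here as sites of STAT5 binding in mouse effector CD8 T cells. Genes of the deposited table whose names start with Hist1, Hist2, Hist3 or Hist4 were taken as replication-dependent cluster genes, and H2afx, H2afz, H2afy and H3f3b as variant histone genes. This gave 40 of 4934 listed genes, of which 36 were replication-dependent (1 of them the pseudogene Hist3h2bb-ps) and 4 were variants. The rule also named the variants H2afv and H3f3a, which are not among the listed genes. The choice used gene names only, not measured values.

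The 2 libraries came from OT-I CD8 T cells of C57BL/6 strain, which carry a transgenic receptor for the ovalbumin peptide SIINFEKL. All cells had been transferred into mice, primed there with that peptide and with CD134 and CD137 agonists, which give costimulation, and sorted from spleen after 4 days. The IL-2 group was 1 library, from cells exposed to 0.5 µg/ml IL-2 in culture for 1 h, and the control group was 1 library, from cells left without it. STAT5 is a DNA-binding protein switched on by IL-2 signalling, and the DNA it held was recovered with a STAT5 antibody and sequenced (ChIP-seq). The number of animals behind each library is not stated in the labels. With 1 library per group there is no replicate check, so values are given without an error and without a test. The libraries are of bulk sorted cells, so more cells with bound STAT5 and more STAT5 per cell cannot be told apart.

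Replication-dependent histone genes make the core histones H2A, H2B, H3 and H4 and the linker histones H1 that package newly copied DNA. They lie in dense clusters, their mRNAs end in a stem-loop in place of a poly(A) tail, and their expression is tied to S phase, during which a dividing T cell must make new histones. Variant histones come from separate genes, mostly with ordinary polyadenylated mRNAs, are mostly made throughout the cell cycle and replace the core forms at particular sites. H2afx is an exception, since it also makes a stem-loop mRNA of the replication-dependent kind. Within the clusters, genes of the same core histone family are near copies of each other in their coding sequence. The treatment of reads that match several copies is not stated in the labels or the table. A height close to a coding sequence is thus uncertain.

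A gene entered the table because a binding region, called an interval there, lay near it in at least 1 library. Every histone gene had its intervals in the IL-2 library and 0 had one in the control library. Of all 4934 listed genes 12 had a control interval, so the choice of genes for the table already favours IL-2. The table gives for each gene the mean peak height over its regions in each library and the highest peak, all in signal units. The median of all 4934 genes was 20.75 with IL-2 and 5 in control. All 6 CD8 T cell marker genes looked up were listed, against 0 of 3 B cell and 0 of 3 myeloid markers, although a listing shows nearby binding and not expression. Coordinates are on the mm10 build.

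The 40 genes rested on 21 of the 5703 regions, in 12 loci of genes joined by shared regions. The replication-dependent genes formed 8 loci over 15 regions and the variants 4 loci over 6 regions. RefSeq promoter windows, 250 bases before to 50 bases after the start, were matched for 34 of the 40 genes, and 0 of these held a region position. Among the 6 genes without a window was Hist1h3f, whose region lay 148 bp upstream of its deposited start. The windows of 4 genes that had a position close by are shown to give the sequence beside the binding. The position was 102 bp from the window of Hist2h2ac (H2A, chr3:96220831-96221130, minus strand), 82 bp from that of Hist3h2a (H2A, chr11:58954435-58954734, plus strand), 56 bp from that of the variant H2afz (chr3:137864237-137864536, plus strand) and 135 bp from that of the variant H3f3b (chr11:116024455-116024754, minus strand). The sequences run 5′ to 3′ on the gene's strand, are taken from RefSeq on GRCm38.p6 (the mm10 assembly), and have in capitals the CCAAT box, CCAAT, and the octamer, ATTTGCAT, on either strand, both known elements of histone promoters.
Hist2h2ac: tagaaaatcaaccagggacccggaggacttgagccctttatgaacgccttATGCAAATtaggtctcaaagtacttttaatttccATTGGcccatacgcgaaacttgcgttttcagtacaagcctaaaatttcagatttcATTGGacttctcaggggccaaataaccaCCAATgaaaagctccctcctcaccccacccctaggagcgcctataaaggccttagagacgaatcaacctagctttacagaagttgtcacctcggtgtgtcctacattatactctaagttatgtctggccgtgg
Hist3h2a: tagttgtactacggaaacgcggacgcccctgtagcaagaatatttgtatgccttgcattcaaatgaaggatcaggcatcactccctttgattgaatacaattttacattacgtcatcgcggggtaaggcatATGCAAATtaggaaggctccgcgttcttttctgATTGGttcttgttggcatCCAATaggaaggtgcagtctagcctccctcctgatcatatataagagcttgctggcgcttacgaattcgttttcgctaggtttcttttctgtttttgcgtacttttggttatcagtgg
H2afz: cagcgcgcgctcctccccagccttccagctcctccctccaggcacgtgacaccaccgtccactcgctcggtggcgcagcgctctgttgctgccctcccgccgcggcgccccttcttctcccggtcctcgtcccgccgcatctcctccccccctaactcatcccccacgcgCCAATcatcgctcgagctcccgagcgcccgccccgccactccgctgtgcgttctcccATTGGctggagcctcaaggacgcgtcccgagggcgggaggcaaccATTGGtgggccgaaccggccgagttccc
H3f3b: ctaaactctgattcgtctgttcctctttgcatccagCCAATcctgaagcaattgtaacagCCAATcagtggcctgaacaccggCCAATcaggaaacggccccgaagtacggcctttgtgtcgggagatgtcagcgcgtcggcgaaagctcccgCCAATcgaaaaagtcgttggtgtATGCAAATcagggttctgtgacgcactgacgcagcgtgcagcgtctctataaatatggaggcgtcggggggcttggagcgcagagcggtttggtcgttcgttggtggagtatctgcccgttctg

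The motif that STAT5 dimers bind, TTCNNNGAA, reads the same on both strands and was found in the windows of Hist4h4 and Hist1h1e. In Hist4h4, an H4 gene, it was TTCCTGGAA, 148 bases before the start, in a window 94 bp from the nearest region position (chr6:136804382-136804681, minus strand). In Hist1h1e, a linker histone H1 gene, it was TTCGGGGAA, 195 bases before the start, in a window 1645 bp from the nearest position (chr13:23622509-23622808, minus strand). These windows are printed with that motif in capitals.
Hist4h4: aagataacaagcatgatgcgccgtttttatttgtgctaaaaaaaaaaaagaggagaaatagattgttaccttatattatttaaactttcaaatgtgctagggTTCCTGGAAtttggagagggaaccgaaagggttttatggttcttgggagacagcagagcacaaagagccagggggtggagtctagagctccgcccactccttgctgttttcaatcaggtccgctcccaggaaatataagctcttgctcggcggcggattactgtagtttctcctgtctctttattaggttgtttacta
Hist1h1e: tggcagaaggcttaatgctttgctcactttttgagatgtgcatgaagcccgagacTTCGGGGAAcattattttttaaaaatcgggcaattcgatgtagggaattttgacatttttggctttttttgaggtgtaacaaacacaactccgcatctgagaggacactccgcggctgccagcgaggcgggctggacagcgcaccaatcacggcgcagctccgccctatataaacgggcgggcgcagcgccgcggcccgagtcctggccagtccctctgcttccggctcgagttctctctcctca

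Mean STAT5 height was greater in the IL-2 library than in the control library at all 40 histone genes as deposited. The same held for all 4934 listed genes, so it is no property particular to the histone genes. Among the 40, the largest heights were in the Hist1 cluster on chromosome 13 and the smallest at the Hist2 genes on chromosome 3. After scaling that gave the libraries equal medians over the table, 19 of the 40 (47.5%) remained higher with IL-2, against 58.7% of all listed genes. This scaling takes away any gain common to the table. A gene not higher after it had a fold gain below that of the medians, 5 in control and 20.75 with IL-2. Its deposited height was still greater with IL-2. Heights with IL-2 spanned 11 to 65.5 signal units over the 40 genes, and heights in control spanned 3 to 8.

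For each gene, 5 was added to its height in both libraries and the IL-2 value was divided by the control value, which understates the fold of low heights. It was at least 2 at 36 of the 40 histone genes (90%), against 83.8% of all listed genes, and 3 of the 36 stood at exactly 2. The 4 genes under 2 were Hist2h2ab, Hist2h2ac, Hist2h2be and H3f3b. The median log2 ratio was 1.32 over the 40 genes and 1.42 over all listed genes. A share and a median this close to those of the whole table, from genes that share regions, describe no property particular to the histone genes.

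**Figure D1:**
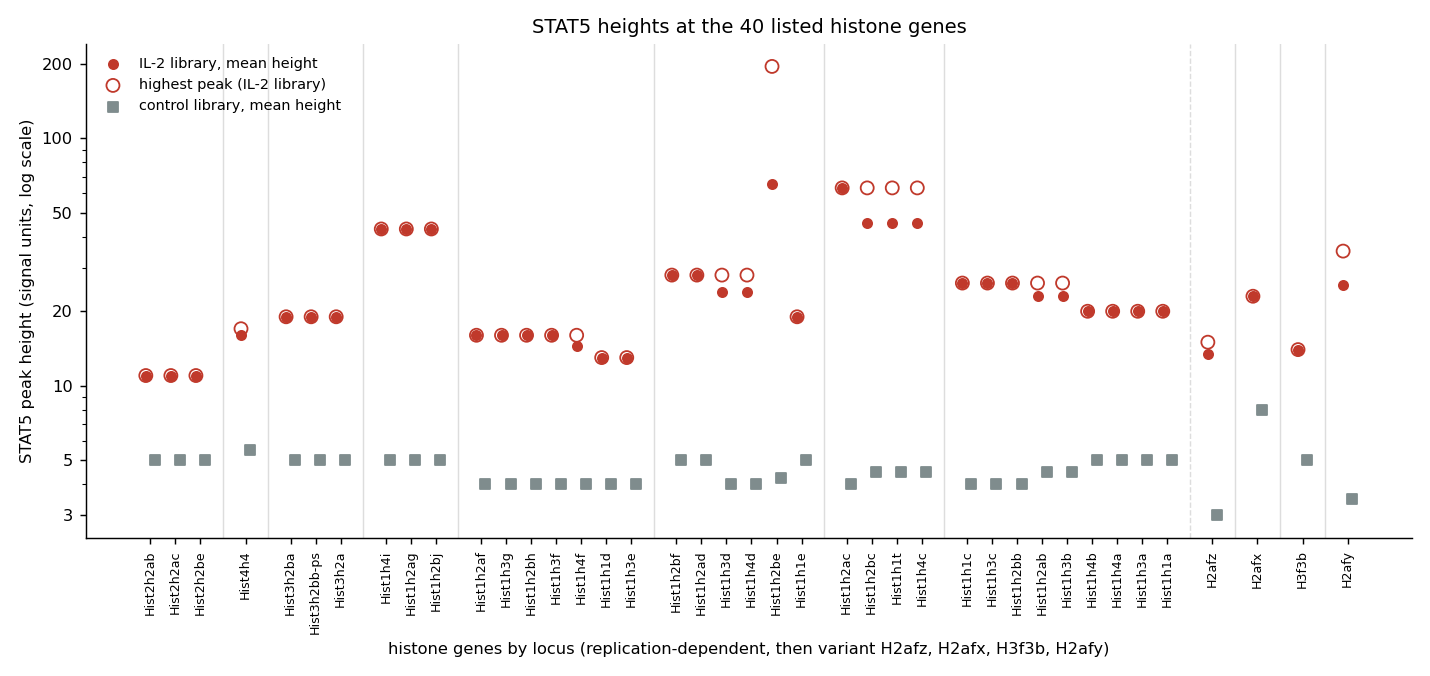
STAT5 peak height (signal units, log scale) at each of the 40 listed histone genes, grouped by locus, with the IL-2 mean as filled circles, the highest peak as open circles and the control mean as squares. Control heights stay between 3 and 8 while IL-2 means range from 11 to 65.5, and Hist1h2be has the highest peak, at 195. Points at the same level within a locus are often the same region counted for several genes.

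The strongest STAT5 region of the histone genes was at chr13:23593312, with a height of 195 in the IL-2 library and 4 in the control library (log2 ratio 4.47). The table assigned it to Hist1h2be alone, an H2B gene whose deposited span also holds other regions. Among the 2487 regions whose single height could be worked out from the gene means, this height ranked 2 and this log2 ratio ranked 1. It lay 27812 bp inside the deposited Hist1h2be span, counted from that gene's start, and 11710 bp from the nearest deposited histone gene start, that of Hist1h4d. RefSeq gives Hist1h2be a second, nearer start at position 23585970, and the region was 7342 bp upstream of that one. The RefSeq spans over it are that of Hist1h2be and that of the uncharacterised gene Gm33387.

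The other 3 regions of Hist1h2be were far lower. They had heights of 28 with IL-2 and 5 in control at position 23584704, 20 with IL-2 and 3 in control at 23586752, and 19 with IL-2 and 5 in control at 23620864. The mean that the table reports for Hist1h2be, 65.5 with IL-2 and 4.25 in control (log2 ratio 2.93), thus averages 1 very high region with 3 near the median of all listed genes. The last of the 3 lay 260 bp past the deposited start of Hist1h2be and also counted for Hist1h1e, the H1 gene whose window is printed above, which had 19 with IL-2 and 5 in control (log2 ratio 1.26). The H2B gene Hist1h2bf and the H2A gene Hist1h2ad had only the region of height 28 (log2 ratio 1.72). Hist1h3d (H3) and Hist1h4d (H4) averaged that region with the one of height 20, giving 24 with IL-2 and 4 in control (log2 ratio 1.69).

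The next strongest region lay at chr13:23692064, with a height of 63 in the IL-2 library and 4 in the control library (log2 ratio 2.92). It was 71200 bp from the nearest region before it and fell within Hist1h2bc (H2B), 7865 bp past its start. Hist1h2ac, a divergently placed H2A gene, had this region only. Hist1h2bc, Hist1h4c (H4) and Hist1h1t, the testis form of linker histone H1, averaged it with a region at position 23697552 and had 45.5 with IL-2 and 4.5 in control each (log2 ratio 2.41). That second region had 28 with IL-2 and 5 in control, lay 897 bp from the start of Hist1h4c and beyond its end, and was also assigned to the iron-regulating gene Hfe. Hist1h1t is known as a testis gene, and its height here comes only from regions it shares with other genes.

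A further high region stood apart from these, at chr13:22051248. Its height was 43 with IL-2 and 5 in control (log2 ratio 2.26), and it was assigned to Hist1h4i (H4), Hist1h2ag (H2A) and Hist1h2bj (H2B). It was 8018 bp from the start of Hist1h2bj, 8299 bp from that of Hist1h2ag and 9896 bp from that of Hist1h4i, outside all 3 genes. No other region was assigned to any of the 3.

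The rest of the chromosome 13 genes had lower heights, close to the median of the table. At the end of higher coordinates, Hist1h1c, Hist1h3c and Hist1h2bb (H1, H3 and H2B) shared a region of 26 with IL-2 and 4 in control at position 23742048. Hist1h4a, Hist1h4b, Hist1h3a and Hist1h1a shared a region of 20 with IL-2 and 5 in control at 23760352, and Hist1h2ab and Hist1h3b had both regions (23 with IL-2, 4.5 in control). At the other end, Hist1h2af, Hist1h3g, Hist1h2bh and Hist1h3f had 16 with IL-2 and 4 in control at 23543904. That position was 148 bp upstream of Hist1h3f and 552 bp upstream of Hist1h2bh, between 2 genes that are read away from each other. Hist1h1d and Hist1h3e had 13 with IL-2 and 4 in control at 23556064, and Hist1h4f averaged both regions at 14.5 with IL-2 and 4 in control. Of the 29 Hist1 genes, 17 (58.6%) were higher with IL-2 after scaling, against 58.7% of all listed genes. The other 12, not higher after scaling, were the 7 genes of this last group, Hist1h1e and the 4 genes at 23760352.

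**Figure D2:**
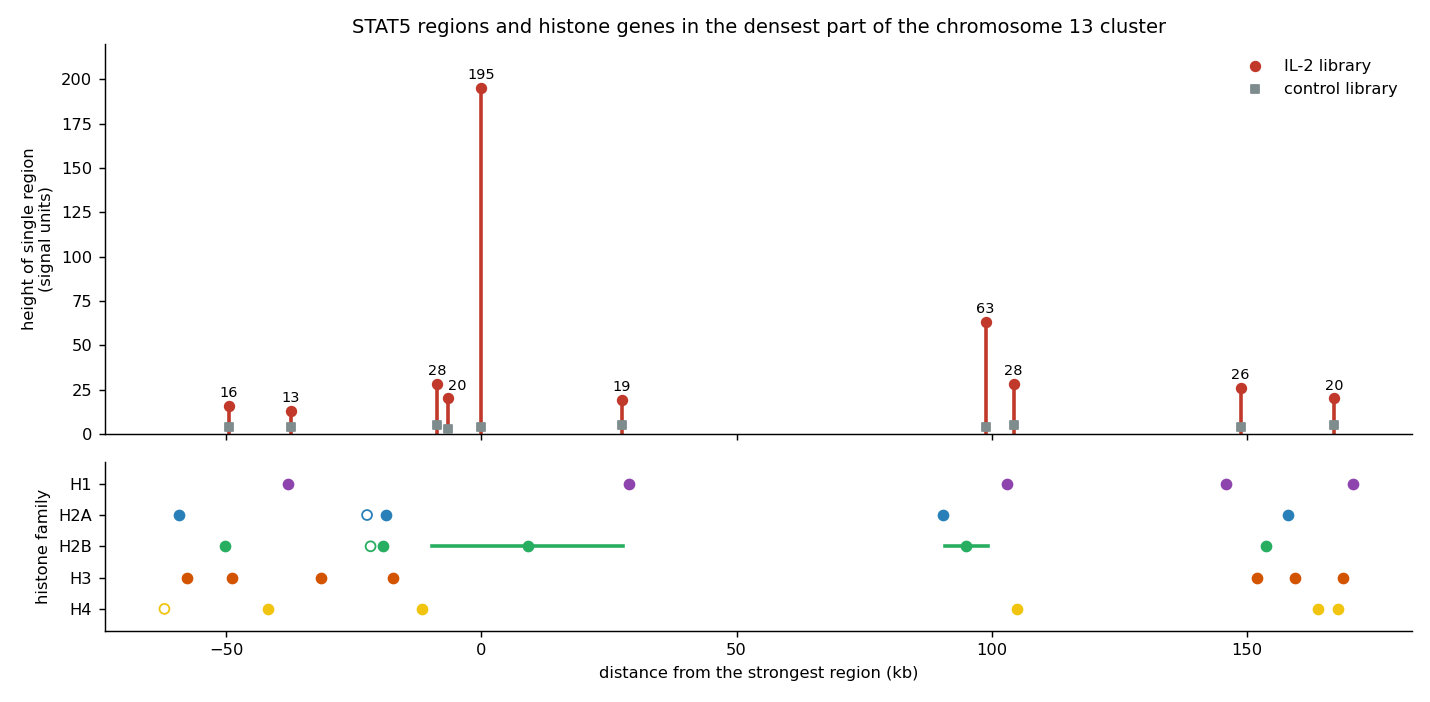
Upper panel, height (signal units) of each STAT5 region in the IL-2 library (circles on stems) and the control library (squares) against distance in kb from the strongest region. Lower panel, RefSeq histone genes of the same stretch by family, filled where the table lists them and open where it does not, with lines for spans over 5 kb. The region of height 195 stands alone at 0, the region of height 63 is the next highest, and the other 8 lie between 13 and 28.

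The smaller clusters had modest heights. The 3 Hist2 genes, Hist2h2ab, Hist2h2ac and Hist2h2be, shared 1 region at chr3:96221232 with 11 in the IL-2 library and 5 in the control library (log2 ratio 0.68). It lay 388 bp upstream of Hist2h2ac and 111 bp inside Hist2h2be, which are read in opposite directions. This was the lowest IL-2 height and the lowest ratio of the 40 genes. The 3 Hist3 genes Hist3h2a, Hist3h2ba and Hist3h2bb-ps shared 1 region at chr11:58954816 with 19 with IL-2 and 5 in control (log2 ratio 1.26), 131 bp inside Hist3h2a and 304 bp upstream of the pseudogene. Trim17, a ubiquitin ligase gene, counted the same region. Hist4h4 had 2 regions with a mean of 16 with IL-2 and 5.5 in control (log2 ratio 1.00), 1 of them 143 bp inside the gene and the other 5073 bp upstream within H2afj. None of these 7 genes was higher with IL-2 after scaling.

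Each of the 4 variant genes stood at its own locus. H2afy, which encodes the large variant macroH2A1 associated with silent chromatin, had the largest values, with a mean of 25.5 with IL-2 and 3.5 in control and a highest peak of 35 (log2 ratio 1.84). Its regions lay within the gene, 1246 and 19326 bp past the start, and had IL-2 heights of 35 and 16 in an order the table does not give. H2afx, whose product is phosphorylated around DNA breaks, had 23 with IL-2 and 8 in control (log2 ratio 1.11) at chr9:44334320, 395 bp upstream. The control height of 8 was the highest of the 40 genes, and the region also counted for Dpagt1.

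The other variants were lower. H2afz, which encodes H2A.Z, a variant found beside active gene starts, had a mean of 13.5 with IL-2 and 3 in control (log2 ratio 1.21). Its 2 regions, with IL-2 heights of 15 and 12 in unknown order, lay 418 and 1351 bp upstream and were shared with Dnajb14 and LOC101055801. H3f3b, which encodes the replacement histone H3.3, had 14 with IL-2 and 5 in control (log2 ratio 0.93) at chr11:116024320, 184 bp inside the gene, a region shared with Unk. H2afz and H2afy were still higher with IL-2 after scaling, whereas H2afx and H3f3b were not.

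Set side by side, the classes had similar medians and ranges that overlapped. The 36 replication-dependent genes had a median IL-2 height of 20 (11 to 65.5) and the 4 variant genes 18.5 (13.5 to 25.5). In control the median was 4.5 (4 to 5.5) at replication-dependent genes and 4.25 (3 to 8) at variant genes. By IL-2 height, 18 of the 36 replication-dependent genes lay within the range of the variants, 13 above it and 5 below it. By control height, 3 of the 4 variant genes lay outside the narrow range of the replication-dependent genes, H2afz at 3, H2afy at 3.5 and H2afx at 8. The replication-dependent region at position 23586752 also had 3 in control. The share of all listed genes outside either range was not counted. The median highest peak was 20 (11 to 195) at replication-dependent genes and 19 (14 to 35) at variant genes. The median log2 ratio was 1.32 at replication-dependent genes and 1.16 at variant genes, a difference of 0.16. The ratio reached 2 at 33 of 36 replication-dependent genes (91.7%) and 3 of 4 variant genes (75%), against 83.8% of all listed genes. The 3 replication-dependent genes under 2 share 1 region, so these counts show no difference between the classes.

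Genes that share a region are not replicates, and no test was made. The IL-2 difference of 1.5 signal units became −1 when only the genes nearest to a region were counted, so the order of the classes by IL-2 height depends on which genes are counted. The log2 ratio difference stayed above 0 in the settings tried, at 0.11 to 0.40. The regions of 195, 63 and 43 all lay on chromosome 13 near Hist1 genes, and no variant region was above 35.

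**Figure D3:**
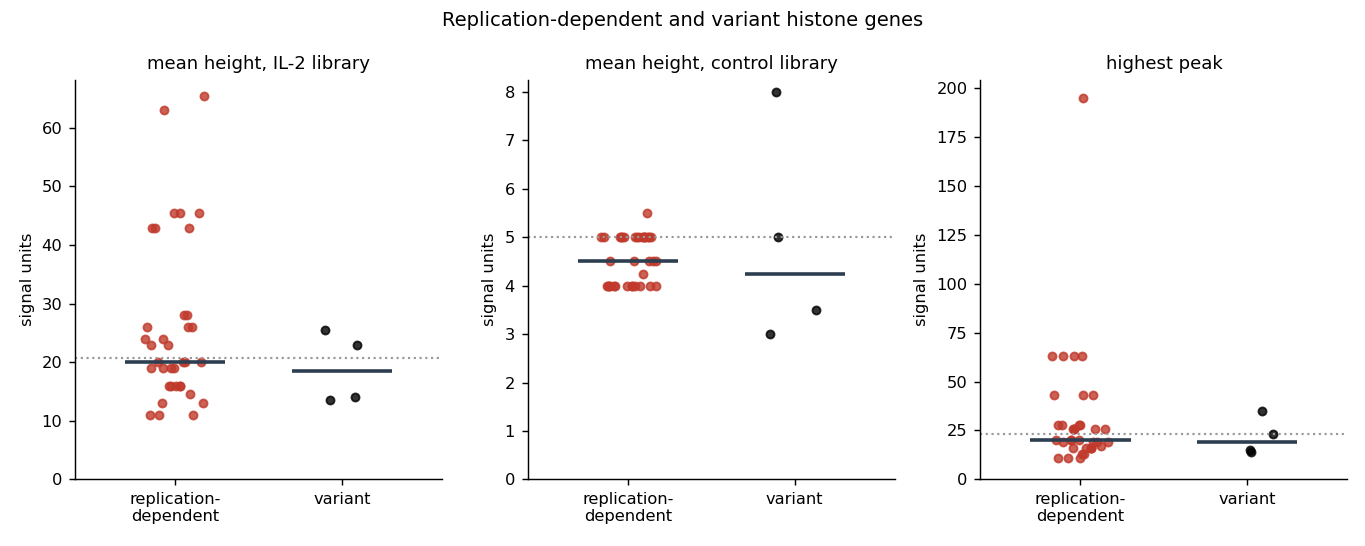
Mean height in the IL-2 library, mean height in the control library and highest peak (signal units) for each replication-dependent (left, 36 genes) and variant (right, 4 genes) histone gene, with class medians as bars and the median of all listed genes as a dotted line. The IL-2 medians, 20 and 18.5, lie close to each other and just under the 20.75 of all listed genes, and the mean IL-2 height exceeds 25.5 at replication-dependent genes only.

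Within the replication-dependent genes, the histone families were alike in their medians. The median IL-2 height was 20 for 5 H1 genes, 21 for 8 H2A genes, 26 for 9 H2B genes, 20 for 7 H3 genes and 20 for 7 H4 genes. The medians in control were 4.5 for H1, 5 for H2A, 5 for H2B, 4 for H3 and 5 for H4. All H1, H3 and H4 genes had a ratio of at least 2, as did 6 of 8 H2A and 8 of 9 H2B genes. The share of all listed genes was 83.8%. The H2A and H2B genes under 2 were the 3 Hist2 genes, which share 1 region. Most regions counted for genes of several families, so the family values are not independent of each other.

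Sharing of regions was more frequent here than in the table as a whole. Of the 15 replication-dependent regions, 14 (93.3%) were assigned to several genes, up to 6 each, against 4 of the 6 variant regions and 30.1% of all 5703 regions. There were 2.4 replication-dependent genes per region, against 0.865 listed genes per region overall. The strongest region, of height 195, was the replication-dependent region assigned to 1 listed gene of any kind. The 2 regions of Hist4h4 had no other replication-dependent gene but were shared with H2afj and Wbp11.

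The 3 highest regions, of 195, 63 and 43, were all more than 1 kb from a histone gene start. Of the 21 regions, 10 were at most 1 kb to either side of a listed histone gene's start, and 11 were farther away. The 8 near regions with a single height had a median of 19 with IL-2 (11 to 28), and the 7 far ones a median of 28 (13 to 195). This split used deposited starts. From the second RefSeq start of Hist1h2be, the far region at position 23586752, of height 20 with IL-2, was only 782 bp away. For comparison with the 10 of 21, 1569 of all 5703 regions were at most 1 kb from a listed gene's start, and 4134 were farther away. Of these, the 1084 near regions with a single height had a median of 16 with IL-2 and the 1403 far ones 20. The near histone regions included those at Hist2h2be, Hist3h2a, Hist4h4 and H3f3b, which lay within the gene, and those at Hist1h3f, H2afx and H2afz, which lay upstream. Those near Hist1h4c and Hist1h4a were past the ends of these short genes.

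**Figure D4:**
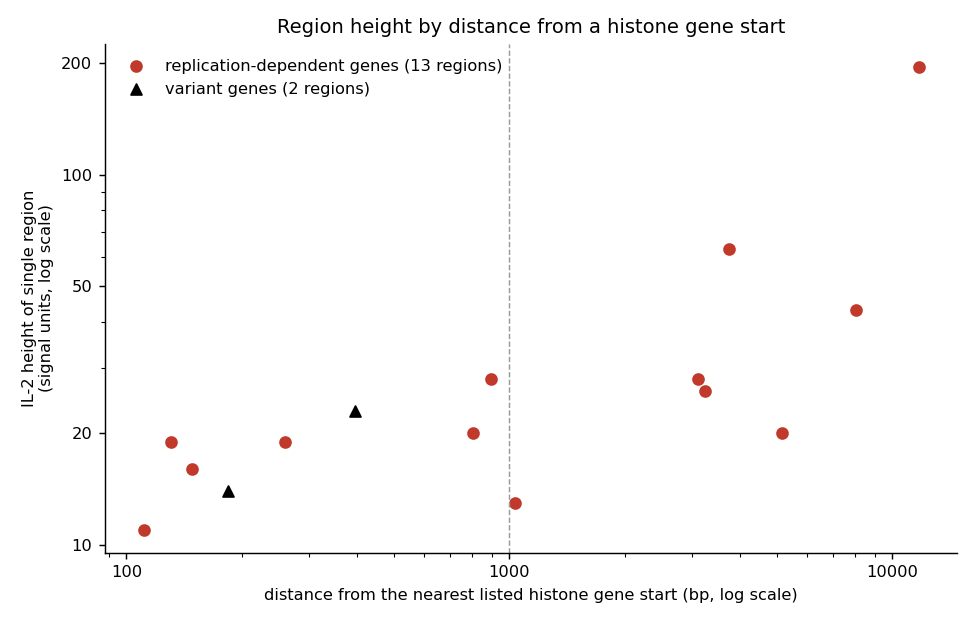
IL-2 height of single regions (signal units, log scale) against distance in bp (log scale) from the nearest deposited start of a listed histone gene. Shown are the 13 replication-dependent (circles) and 2 variant (triangles) regions with a single height. The dashed line marks 1 kb, with heights of 11 to 28 to its left and 13 to 195 to its right.

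Listing was uneven along the clusters. RefSeq has 70 genes named Hist1 to Hist4 on this assembly, of which 36 were in the table. Of the 67 that code for protein 35 were listed (52.2%), against 19.1% of all protein-coding genes. Because 14 of the 15 regions counted for several genes, neighbouring genes were not listed independently. Grouped by gaps of over 100 kb, the 233 kb group on chromosome 13 that holds the strongest region had 26 of 29 genes listed over 10 regions. The group around Hist1h2bj had 3 of 5 listed and the Hist2 group 3 of 10. The other large group, 122 kb from chr13:21715711 to chr13:21837530, had 0 of its 19 genes listed, and these genes lay 63494 to 184799 bp from the nearest region in the table.

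Among promoter letters, the elements of histone promoters were more frequent than over all genes with a window. The STAT motif was in too few windows to be set apart from its share over all genes, and its looser forms were near theirs. The windows held 0 region positions. Hist1h2be had 2 windows, and 4 of the 35 windows overlapped that of another histone gene. CCAAT was in the windows of 29 of 34 genes (85.3%), against 41.1% of all 27025 genes with a window. TATAAA was in 18 (52.9%) against 15.7%, and ATTTGCAT in 7 (20.6%) against 1.97%, each on either strand. TTCNNNGAA was in 2 (5.88%) against 9.55%. With 1 mismatch allowed, 27 (79.4%) held it against 74.2%, and forms with a spacing of 2 or 4 bases were in 7 (20.6%) against 16.6%. The sequence under the regions themselves was not analysed here.

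Genes that act on histones or their mRNAs were also looked up. The counts that follow stand beside 19.1% of protein-coding genes listed and, of the listed genes, 83.8% with a ratio of at least 2 and 58.7% higher with IL-2 after scaling. Of 19 genes for histone mRNA processing and transcription, 6 were listed, all with a ratio of at least 2, and 2 of them, Cpsf2 and Cpsf3, were higher with IL-2 after scaling. Cpsf2 and Cpsf3, subunits of the complex that cleaves histone mRNA, had 34 with IL-2 and 6 in control, and 10 with IL-2 and 2 in control. Slbp, the protein that binds the histone stem-loop, had 13 with IL-2 and 3.5 in control, with both of its regions upstream of the start. Eri1, an exonuclease of histone mRNA, had 24 with IL-2 and 6 in control. Gon4l, a transcriptional regulator, had 25 with IL-2 and 7 in control. Ccne1, the cyclin that opens S phase with Cdk2, had 16 with IL-2 and 4 in control. Median values of the 6 were 20 with IL-2 and 5 in control, near those of all listed genes.

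Of 27 histone chaperone and deposition genes, 9 were listed, 7 of them with a ratio of at least 2, and 7 were higher with IL-2 after scaling. The share of all listed genes was 83.8% for that ratio and 58.7% after scaling. Cabin1, a subunit of the complex that deposits H3.3, had the largest values, with a mean of 56 with IL-2 and 3 in control and a highest peak of 97 (log2 ratio 2.93). Ssrp1, a subunit of the FACT chaperone, had 30 with IL-2 and 5 in control. Atrx, which deposits H3.3 at repeats, had 27 with IL-2 and 5 in control. Asf1a, a chaperone of H3 and H4, had 21 with IL-2 and 5 in control. Anp32e, which removes H2A.Z, had 20 with IL-2 and 3.5 in control.

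The remaining listed chaperones were lower. Chaf1a, which loads histones behind the replication fork, had 19 with IL-2 and 3 in control, and Npm1 had 16 with IL-2 and 3 in control. Rbbp4 had 14 with IL-2 and 7 in control, and Vps72 had 13 with IL-2 and 5 in control. Both had ratios under 2 and were not higher with IL-2 after scaling. The median log2 ratio of the 9 genes was 1.56, against 1.42 for all listed genes. Of 10 further variant histone genes looked up by symbol, 1 was listed, H2afj, which counted the same regions as Hist4h4 and so had the same 16 with IL-2 and 5.5 in control.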

How the data were processed

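STAT5 ChIP-seq was measured in 1 IL-2 library and 1 control library. The labels name an anti-STAT5 antibody and a commercial provider. Per the submitters' processing notes, reads were aligned with BWA to mm10. Not given in the sources used here are the depth of the libraries, whether they were scaled, the read extension and the peak caller. The values deposited by the authors are peak heights, a signal that is never negative: per gene, the mean over its regions in each library and the highest peak over both.

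Region positions came from adding the listed distance to the gene's start on its strand. The gene means form linear equations in the region heights, and these fixed the height of 15 of the 21 histone regions (2487 of 5703 in all). In a test on simulated data 2487 of 2487 were recovered. The simulated gene values were plain means of region heights, as the equations assume. The test thus checked the solving only, and not whether the deposited values are such means. Pairs of regions at H2afy, Hist4h4 and H2afz were split from the mean and the highest peak. Log2 ratios used a pseudocount of 5. Scaling set both libraries to the mean of their medians, which moved the median log2 ratio of all listed genes by −1.28, to 0.13. Loci are genes joined by shared regions. Genes were matched to RefSeq by gene ID (40 of 40).

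Genes, classes and lists were chosen with earlier results of these data known. All histone genes are named, with genes sharing their regions, except 1 that is not reported here, and listed members of the lists. Read counts are unknown, so no counting error is given. Python 3.11.15, numpy 2.4.6 and pandas 2.3.3 were used.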

Additional observations from a re-analysis of the deposited data

How the results depend on the processing

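The design allowed no test, so only values and counts could be compared across settings. The number of histone genes with a ratio of at least 2 was 36 of 40 as reported. It was 40 with a pseudocount of 1 or at a ratio of at least 1.5, and 36 with the highest peak as IL-2 value. It was 22 with a pseudocount of 10, 8 at a ratio of at least 4 and 5 after scaling to equal medians. When loci were counted it was 10 of 12. The same counts over all listed genes are not given for these settings. The changes thus describe no property particular to the histone genes. The IL-2 height of replication-dependent minus variant genes, 1.5 as reported, was 0.931 after scaling, 2.33 by locus, 4 with the other variant gene H2afj added, 1.5 over single regions from gene means, 4.5 when pairs of regions were also split by the highest peak, and −1, a reversed order, over the genes nearest to a region (12 replication-dependent and 3 variant). The difference in median log2 ratio, 0.16, was 0.17 with a pseudocount of 1, 0.14 with 10, 0.12 after scaling, 0.11 with the highest peak as IL-2 value, 0.24 by locus, 0.40 over nearest genes and 0.22 with H2afj. The difference in highest peak, 1, was 2.17 by locus, 0 over nearest genes and 3 with H2afj. The STAT motif, in 2 promoters, was in 7 with a spacing of 2 or 4 and in 27 with 1 mismatch. The cause of these shifts was not tested. After scaling, the log2 ratio was −0.36 at Hist4h4, −0.41 at H2afx, −0.090 at the Hist3 genes and −0.10 at the locus of Hist1h2af, against 1.00, 1.11, 1.26 and 1.15 as reported, and it was also below 0 at the Hist2 genes (−0.60) and H3f3b (−0.39). Splitting pairs of regions by the highest peak, and leaving out the pseudogene, were chosen after seeing the data. No paired analysis was possible because both groups consist of 1 library. Depth and read counts are unknown, so heights that differ by a few signal units cannot be ordered.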

Other observations

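Genes lying between the histone clusters of chromosome 13 were also listed, with heights of 12 to 29 with IL-2. Prss16, a thymus protease gene, had 16 with IL-2 and 5 in control at a region 7789 bp past its start. Pom121l2 had 15 with IL-2 and 4 in control, and the microRNA gene Mir1983 had 12 with IL-2 and 3 in control. Abt1, 2310057B04Rik and C230035I16Rik shared a region of 29 with IL-2 and 5 in control (log2 ratio 1.77) at chr13:23430912. None of these neighbours reached the heights of 195, 63 or 43 seen near Hist1h2be, Hist1h2bc and Hist1h2bj. The region of 29 was just above 28, the highest of the other Hist1 regions.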
